A study of Mus musculus with 3 samples.

Results

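The FOS and JUN family genes are the 7 mouse genes Fos, Fosb, Fosl1, Fosl2, Jun, Junb and Jund, taken by name from 21887 protein-coding genes of the RefSeq annotation. Each gene was described by the ATF4 and CEBPG peaks that touched its span or the 50 kb on either side, called its window here. The peaks came from chromatin immunoprecipitation and sequencing (ChIP-seq) of primary wild-type C57BL/6 mouse embryonic fibroblasts, isolated at E13.5. All cells had been plated for 24 hours and then switched to amino acid deprived medium for the last 3 hours, so no group with amino acids was compared. One library was made with an ATF4 antibody, one with a CEBPG antiserum and one with a GFP antibody, which was not analysed here. With 1 library per antibody there is no replicate error, and no value below carries a test.

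FOS and JUN proteins are basic leucine zipper (bZIP) transcription factors that pair through their zippers and bind DNA as the AP-1 complex. JUN proteins can pair with each other or with a FOS protein, while FOS proteins need a JUN partner for stable DNA binding. ATF4 and CEBPG belong to the same bZIP class, and ATF4 is the transcription factor best known for switching on genes when amino acids run short. In fibroblasts Fos, Fosb, Jun and Junb are known as immediate-early genes, switched on quickly by serum and growth factors, and JUN is known to act on its own promoter.

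The windows of the 7 genes held 2 ATF4 peaks and 10 CEBPG peaks. No window held a CEBPG peak that overlapped an ATF4 peak, which 2.96% of all protein-coding genes had. The score of a peak, read from the end of its name in the authors' list, ranks it within that list, and both lists begin at about 40. Scores in the windows were 49.38 and 68.42 for ATF4, and lay between 40.85 and 91.19 for CEBPG. None of the 12 peaks reached 100, a score that 5.11% of all ATF4 peaks and 11.7% of all CEBPG peaks reached. Jun and Junb had no peak of either list, as was the case for 35.0% of all protein-coding genes. The 4 FOS genes held 9 CEBPG and 2 ATF4 peaks, and the 3 JUN genes 1 and 0. Over all protein-coding genes the mean per window was 1.39 CEBPG and 0.141 ATF4 peaks. Of the 10 CEBPG peaks, 4 had another gene as their nearest. No difference between the FOS and JUN sides is called.

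The promoters of 6 members were available from RefSeq (GRCm38.p6, the patch release of the files' build mm10). Fosl1, the member with a CEBPG peak across an end of its gene, had no entry, so its promoter was not examined. No ATF4 or CEBPG peak touched any of these 6 promoters, taken from 250 bases before to 50 bases after the gene start. That is the usual case in these data. Of 21263 promoters of protein-coding genes, 1.49% touched a CEBPG peak and 0.155% an ATF4 peak. The 250 bases before the start are shown for Fosb and Jun, the members whose promoter held one of the motifs searched, and for Fos and Fosl2, the members with an ATF4 peak elsewhere in the window. They read 5′ to 3′ along the gene, and capitals mark a motif match.
Fosb, chr7:19310046-19310295, minus strand: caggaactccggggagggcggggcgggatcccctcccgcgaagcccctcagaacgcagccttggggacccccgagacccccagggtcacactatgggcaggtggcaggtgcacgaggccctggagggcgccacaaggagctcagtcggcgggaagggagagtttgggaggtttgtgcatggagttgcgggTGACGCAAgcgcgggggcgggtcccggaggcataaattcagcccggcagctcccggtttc
Jun, chr4:95052223-95052472, minus strand: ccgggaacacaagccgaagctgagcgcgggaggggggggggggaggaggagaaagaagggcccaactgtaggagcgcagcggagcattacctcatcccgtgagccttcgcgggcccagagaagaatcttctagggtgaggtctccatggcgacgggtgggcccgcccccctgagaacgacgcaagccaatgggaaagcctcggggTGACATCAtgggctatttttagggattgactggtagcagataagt
Fos, chr12:85473640-85473889, plus strand: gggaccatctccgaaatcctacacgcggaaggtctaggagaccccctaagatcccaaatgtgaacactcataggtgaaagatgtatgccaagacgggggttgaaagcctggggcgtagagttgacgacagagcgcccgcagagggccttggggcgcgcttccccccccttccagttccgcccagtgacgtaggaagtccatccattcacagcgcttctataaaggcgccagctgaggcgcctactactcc
Fosl2, chr5:32136222-32136471, plus strand: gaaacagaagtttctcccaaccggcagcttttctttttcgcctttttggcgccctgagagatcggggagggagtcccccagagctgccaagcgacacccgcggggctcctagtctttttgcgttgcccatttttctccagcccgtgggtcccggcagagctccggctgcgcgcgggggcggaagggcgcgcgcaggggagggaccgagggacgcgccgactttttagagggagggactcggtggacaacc

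Fosb carried TGACGCAA, a hybrid of the cyclic AMP response element (CRE) and a C/EBP site, at bases 60 to 53 before its promoter start. That start lies inside the gene span used for the window, which ends at 19310118, and so does the motif. This motif was rare, in 137 of 21263 promoters (0.644%), and 44 of those 137 promoters (32.1%) touched a CEBPG peak. The Fosb promoter was among those that did not. Jun carried TGACATCA, the AP-1-like element known from the JUN promoter as a site of JUN and ATF2 dimers, at bases 45 to 38 before its start. It occurred in 3.66% of promoters, and 1.03% of the promoters with it touched a CEBPG peak. The other 4 motifs were in none of the 6 member promoters. They were TGATGNAA (the composite C/EBP-ATF element, in 3.6% of all promoters), TTGCGCAA (the C/EBP palindrome, 0.221%), TGANTCA (6.99%) and TGACGTCA (the full CRE, 2.23%). TGANTCA is the AP-1 element searched with any base allowed at its centre. Both strands were searched. For comparison, TGATGNAA was in 42.4% of the 33 promoters that touched an ATF4 peak and in 22.2% of the 316 that touched a CEBPG peak. These matches describe letters only, and the bases under the peaks of the FOS and JUN windows were not analysed here.

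Fosl2, which encodes the FOS-related protein FRA-2, had the strongest ATF4 peak of the family and a CEBPG peak beside it. The ATF4 peak covered chromosome 5 from 32140652 to 32140950, inside the gene and centred 4.33 kb past its start. Its score of 68.42 ranked 258 of 2642 ATF4 peaks. The CEBPG peak covered 32139424 to 32139762, centred 3.12 kb past the start, with a score of 86 and rank 3400 of 25419. The pair was separated by 889 bp, the smallest distance between peaks of the different lists in these windows. The gene table gives no exons, so whether these peaks are exonic or intronic is not stated. A further pair of CEBPG peaks lay downstream of Fosl2, 34.2 kb (score 53.13) and 46.4 kb (47.44) from its span. The farther of them was closer to Plb1, at 28366 bp. No other protein-coding gene reached into the Fosl2 window.

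Fos, the founding FOS gene, had the only other ATF4 peak. It covered chromosome 12 from 85456621 to 85456817, 17.1 kb upstream of the gene and inside the span of the long noncoding RNA Gm38543, with a score of 49.38 (rank 897 of 2642). CEBPG peaks lay 6.75 kb upstream (85467018 to 85467139, score 41.25) and 4.96 kb upstream (85468800 to 85468932, score 40.85). Both were near the bottom of the list, at ranks 22233 and 23044 of 25419. The remaining CEBPG peak, with a score of 49.94, lay 48.5 kb downstream, just inside the window. The ATF4 peak and the closest CEBPG peak were 10.2 kb apart. Fos was the nearest protein-coding gene to all 4 of these peaks, and no other protein-coding gene reached into its window.

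Fosl1, encoding FRA-1, was the only member with a peak at an end of its gene. The CEBPG peak covered chromosome 19 from 5447541 to 5447717 and thus the lower-coordinate end of the gene at 5447698. Its strand was not given, so whether that end is the gene start was not determined. The peak's score of 43.64 ranked 17408 of 25419. The nearest ATF4 peak was 394 kb away. The Fosl1 window was crowded, with 11 other protein-coding genes, and none of them had a peak of its own inside it.

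**Figure D1:**
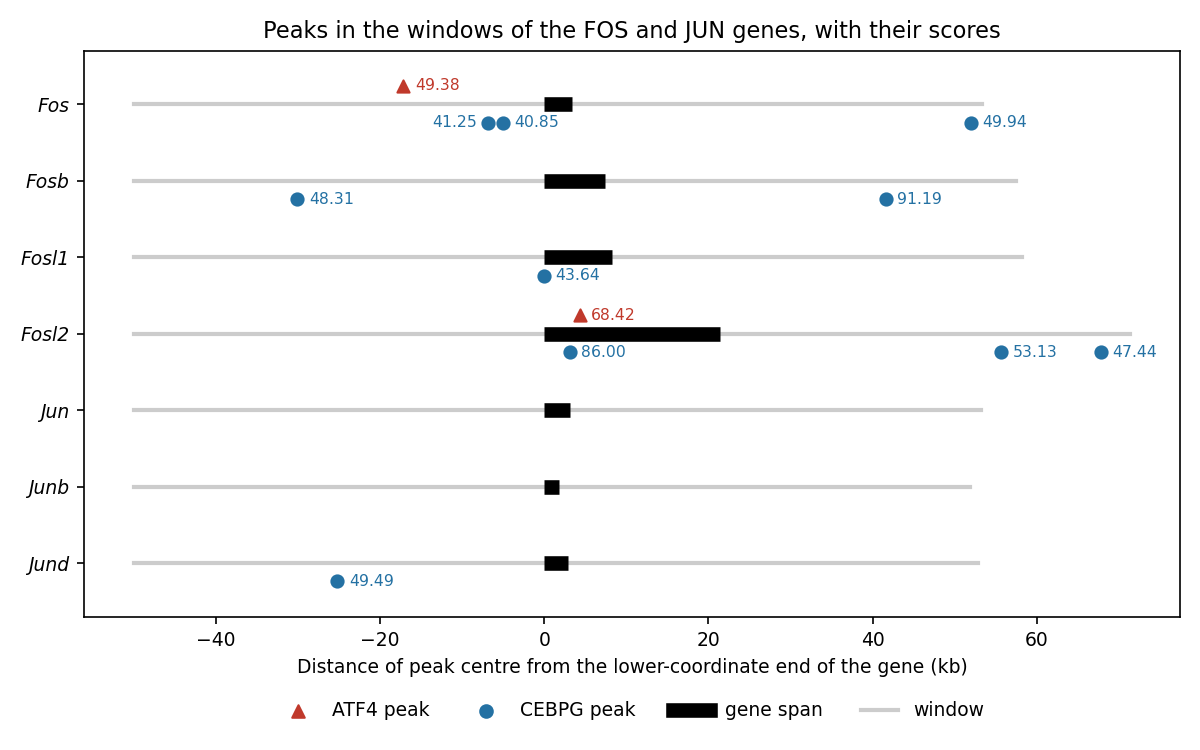
Peaks in the windows of the 7 genes, drawn along the chromosome as the distance of the peak centre from the lower-coordinate end of each gene, in kb. Triangles are ATF4 peaks and circles CEBPG peaks, each with its score, black bars are gene spans and grey lines the windows. Triangles appear at Fos (49.38) and Fosl2 (68.42) alone, and the Jun and Junb rows are empty.

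Fosb had the highest CEBPG score of the family, but at a neighbouring gene. That peak covered chromosome 7 from 19344141 to 19344425, with a score of 91.19 (rank 3230 of 25419). It was 34023 bp upstream of Fosb and inside Ercc1, a DNA repair gene. The other Fosb CEBPG peak, at 48.31, was 30009 bp downstream and 662 bp from Vasp, which encodes an actin-binding protein. With 7 other protein-coding genes in the window, neither peak had Fosb as its nearest gene. The nearest ATF4 peak to Fosb was 513 kb away.

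The JUN genes had 1 peak among them. Jund, the JUN gene known for broad and steady expression, had a single CEBPG peak (score 49.49, rank 10509 of 25419) on chromosome 8 from 70672470 to 70672569. It lay 25.2 kb upstream of Jund and 662 bp from Lsm4, a gene for an RNA-processing protein. For Junb, whose protein is a weaker activator than JUN at many AP-1 sites, the closest CEBPG peak lay just outside the window, at 55.1 kb (score 49.45). For Jun itself the closest was 71.7 kb away, on chromosome 4 from 95123876 to 95124042, with a score of 82.72. That position is inside the span of Junos, the long noncoding RNA upstream of Jun. The nearest ATF4 peaks to Jun, Junb and Jund were 224 kb, 513 kb and 187 kb away. No other protein-coding gene reached into the Jun window, whereas Junb had 8 protein-coding neighbours and Jund had 5.

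**Figure D2:**
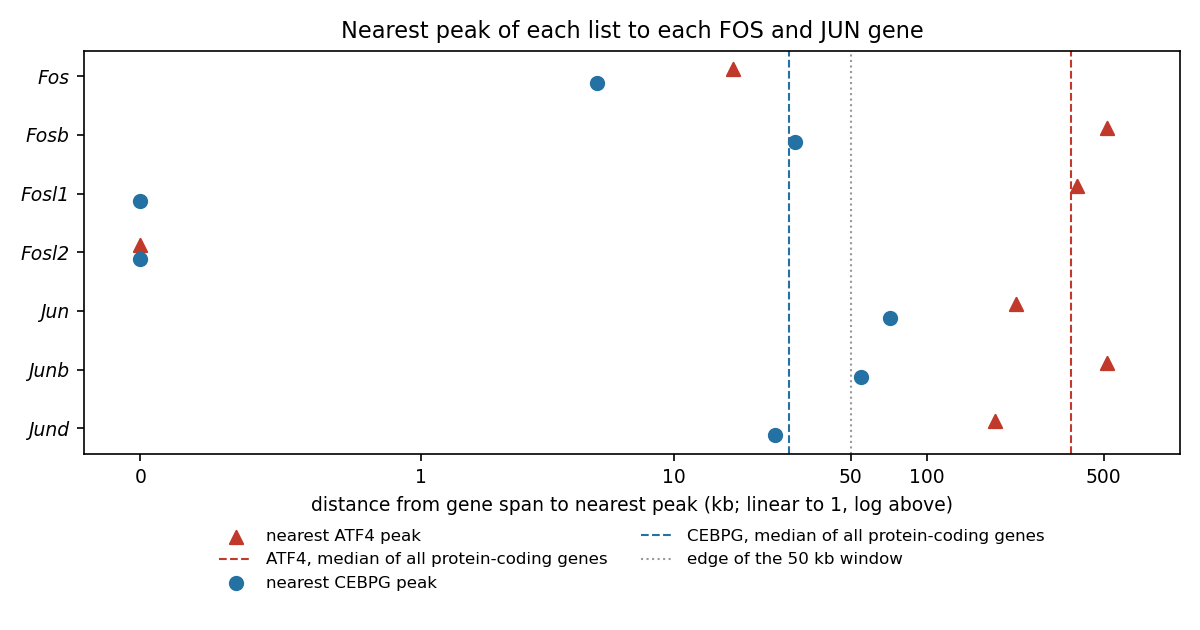
Distance in kb from each gene span to the nearest ATF4 peak (triangles) and CEBPG peak (circles), on an axis that is linear to 1 kb and logarithmic above. Dashed lines are the medians of all protein-coding genes, 371 kb for ATF4 and 28.4 kb for CEBPG, and the dotted line is the window edge. The CEBPG points of Jun and Junb lie beyond the 50 kb line, and the ATF4 points of Fos and Fosl2 are the only ones within it.

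Among the members and among all protein-coding genes, more windows held a CEBPG peak than an ATF4 peak. The lists held 25419 CEBPG and 2642 ATF4 peaks. A CEBPG peak was present at 5 of the 7 members (71.4%), against 62.5% of all protein-coding genes. An ATF4 peak was present at 2 of the 7 (28.6%), against 12.0%. Windows grow with the gene span, and among the 12243 genes no longer than Fosl2 these shares were 53.9% for CEBPG and 9.21% for ATF4. Jun and Junb, the 2 members with neither peak, belong with 35.0% of all genes. The members had a median of 1 CEBPG peak per window and a mean of 1.43, against a median of 1 and a mean of 1.39 over all genes. Per length, the member windows held 13.4 CEBPG and 2.67 ATF4 peaks per Mb over 0.748 Mb, against 9.7 and 0.974 per Mb over all windows merged (1690 Mb). The ATF4 density rests on the 2 peaks at Fos and Fosl2. Shares of 7 genes move by 14.3 percentage points with each gene, and no member share is called different from that of all genes.

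Within 5 kb of the gene span, 3 members had a CEBPG peak (Fos, Fosl1 and Fosl2), against 29.9% of all genes, and Fosl2 had an ATF4 peak, against 4.94%. Peaks overlapping the span itself were those at Fosl1 and Fosl2 for CEBPG, against 23.4% of all genes, and at Fosl2 for ATF4, against 3.94%.

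Scores in the windows were close to those of the whole CEBPG list at the median, with none in its upper tail. Of the 10 CEBPG peaks, 7 scored under 50, where 60.2% of the whole list lies, and the median was 48.9, against 47.2 for the list. A CEBPG peak of 100 or more was in the window of 0 of 7 members, against 17.3% of all genes, and an ATF4 peak of 100 or more in 0 of 7, against 0.991%. Among all 13688 genes with any CEBPG peak in the window, 72.4% likewise had none of 100 or more. A CEBPG peak overlapping an ATF4 peak was in 0 of 7 windows, against 2.96% of all genes. Fos and Fosl2 were the 2 members with peaks of both lists in the window, as were 9.5% of all genes, and at both the peaks lay apart.

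**Figure D3:**
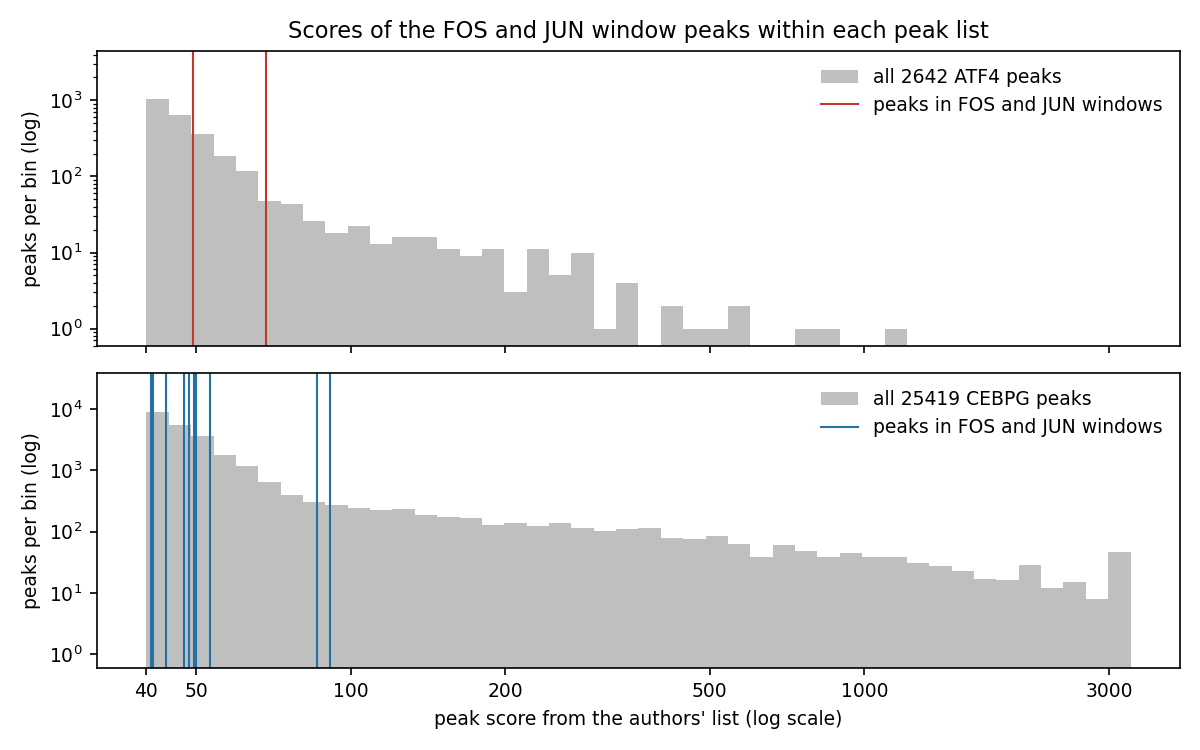
Number of peaks per score bin (both axes logarithmic) for the 2642 ATF4 peaks above and the 25419 CEBPG peaks below, in grey. Coloured lines mark the 2 ATF4 and 10 CEBPG peaks of the FOS and JUN windows, which all lie under a score of 100.

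Fosl2 had the highest summed CEBPG score of the family, 186.57 over 3 peaks, beside an ATF4 sum of 68.42. The protein-coding genes outside its window with the most similar pair of sums, over the 2 libraries, were Try4 (172.38 for CEBPG and 66.83 for ATF4), Sh3glb1 (171.83 and 66.79) and Pgbd5 (169.59 and 67.39). Likeness was the summed absolute difference of log2(sum + 1), which was 0.147, 0.152 and 0.158 for these genes. The 3 CEBPG peaks of Fos summed to 132.04.

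Other bZIP families were described with windows drawn by the same rule, whose length varies with the gene span. A CEBPG peak of any score was at 71.4% of FOS and JUN genes, against 62.5% of all genes. The share was 83.3% for C/EBP, 93.8% for ATF and CREB and 70.6% for other AP-1 and MAF-CNC genes. For ATF4 the shares were, in that order, 28.6%, 16.7%, 25.0% and 29.4%, against 12.0% of all genes. A CEBPG peak of 100 or more was in the window of 0 of 7 FOS and JUN genes and 3 of 6 C/EBP family genes. It was in that of 7 of 16 ATF and CREB genes and 9 of 17 other AP-1 and MAF-CNC partners, against 17.3% of all genes. Overlapping peaks of both lists were in 0 of 7, 0 of 6, 3 of 16 and 3 of 17 windows, in that order. The share of all genes was 2.96%. No test of these differences was run. The highest CEBPG scores in these windows were at Creb3l1 (3100), an endoplasmic reticulum membrane bZIP gene, Nrl (2842.47), Nfe2l2 (2781.52), which encodes the antioxidant regulator NRF2, and Atf5 (2765.18). The peak in the Nrl window was nearer to Pck2, and that in the Atf5 window to Nup62 and Il4i1b. The highest-scoring CEBPG peaks in the Ddit3, Atf1 and Mafg windows were likewise nearest to Mars1, Dip2b and Pycr1. Cebpb had scores of 845.58 for CEBPG and 282.46 for ATF4. Jdp2, an AP-1 repressor gene on the same chromosome as Fos, had 91.38 for CEBPG and 43.98 for ATF4.

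Genes that act upstream or downstream of AP-1, or are induced with it, were described in the same way. An ATF4 peak was in the window of 2 of 13 other immediate-early genes, 5 of 14 kinases and regulators of FOS and JUN, and 3 of 11 genes known as AP-1 targets in fibroblasts, against 12.0% of all genes. None of these ATF4 peaks reached 100, a score found in the windows of 0.991% of all genes. CEBPG peaks were at 11 of 13, 10 of 14 and 9 of 11 of these genes, against 62.5% of all genes. CEBPG peaks of 100 or more were at 5, 3 and 2 of them, against 17.3% of all genes. The immediate-early gene Ier2 had a CEBPG score of 549.08 and Ccn2, a matrix-associated signalling protein gene, 403.13. Overlapping peaks of the lists were at 0 of 13 immediate-early genes, 2 of 14 regulators and 1 of 11 targets. The share of all genes was 2.96%. The 2 regulators were Elk3, an ETS factor that works with SRF, with 63.6 for ATF4 and 79.97 for CEBPG, and Mapk9, with 41.59 and 548.12. The Mapk9 peaks were nearest to Gfpt2. Mapk10 had a CEBPG score of 526.72. The windows of Srf and of Mapk8, which encodes the JUN kinase JNK1, held no peak of either list. Among targets, Vegfa had the highest CEBPG score, 307.14, overlapping an ATF4 peak of 44.93, with both nearest to Mrps18a. The protease gene Mmp3 had the highest ATF4 score among targets, 83.85, with a CEBPG score of 40.72, and Ccnd1 and Timp1 had no peak.

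**Figure D4:**
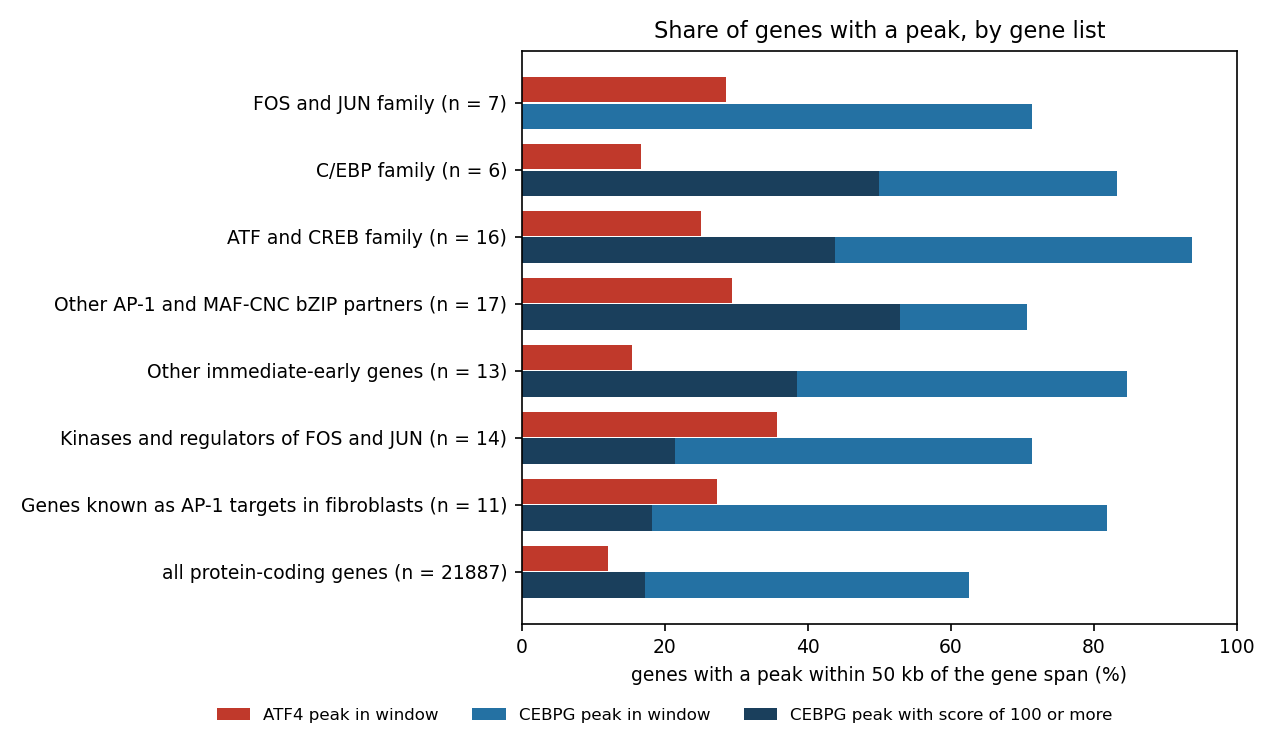
Percentage of genes with a peak within 50 kb of the gene span, for the FOS and JUN family at the top, the 6 related lists, and all 21887 protein-coding genes at the bottom. Red bars are ATF4 peaks, blue bars CEBPG peaks, and the dark part of a blue bar is genes with a CEBPG score of 100 or more. The FOS and JUN bar, at 71.4%, has no dark part.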

How the data were processed

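Peaks were deposited as 1 BED list per library, with no pooling recorded. Per the submitters' processing notes, the tools were Trimmomatic, BWA, MACS 1.4.2 and HOMER on mm10. Their settings, and any use of the GFP library as background, are not given in the sources at hand. Each deposited score is the number that ends the peak name. It is the authors' own value, of unstated scale, and was used only to rank and filter peaks within a list. Read depth is unknown, so the lists' lengths cannot be compared. Deposited start and end positions were made 1-based.

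Gene spans came from RefSeq GRCm38.p6, and the strand of 6 members from its promoter table. A peak belonged to a window when it overlapped it by at least 1 bp, and peaks overlapped each other by the same rule. Python 3.11.15 with pandas 2.3.3 was used, and the counting was tested on simulated peaks. No test between conditions is possible with 1 library per antibody. Members, the 6 related lists and the rules were chosen with earlier results of these data known. All 7 members are named. Other genes are the nearest gene of a peak, the highest scores of a related list, and the 3 genes most like the member with the highest summed CEBPG score. Jdp2, Atf1, Mafg, Srf, Mapk8, Ccnd1, Timp1 and Junos were named after their values were seen.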

Additional observations from a re-analysis of the deposited data

How the results depend on the processing

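With 5 kb on either side, 3 members had a CEBPG peak (3 peaks) and 1 an ATF4 peak (1 peak). With 20 kb, 3 members had a CEBPG peak (4 peaks) and the 2 ATF4 peaks stayed in. With 100 kb, all 7 members had a CEBPG peak (17 peaks), with no further ATF4 peak. At scores of 50 or more, 2 members had a CEBPG peak (3 peaks) and 1 an ATF4 peak (1 peak), and at 100 or more all of these counts were 0. The counts were the same without peaks over 1000 bp wide and with midpoints deciding the window. The number of members with overlapping ATF4 and CEBPG peaks was 0 under each of the 9 alternatives, including midpoints within 250 bp and 50% of both peaks. Only the 100 kb window could have raised it from 0, and it brought in no further ATF4 peak. The 250 bp midpoint rule could not, because the closest pair in these windows lay 889 bp apart. The other settings only remove peaks or tighten the overlap. With the main rule, 2.96% of all genes had such an overlap. The shares of all genes with a peak in the window moved as well. For CEBPG they were 29.9%, 43.7% and 79.3% at 5, 20 and 100 kb and 38.2% at scores of 50 or more, and for ATF4 4.94%, 7.44%, 19.3% and 4.6%. Among the 12243 genes no longer than Fosl2 they were 53.9% and 9.21%. Peaks under the authors' minimum score of about 40 are not in the lists, so a window without a peak is not shown to lack binding. No paired analysis was possible because each antibody has 1 library.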
